A study of Homo sapiens with 4 samples.

Results

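Arp5 knockout (KO) cells were compared with Arp8 KO cells of the same human line, to ask what separates loss of one subunit of the INO80 complex from loss of the other. The members are the arrays titled for these genotypes, 2 of the 4 arrays in the series. Nalm-6, an established human pre-B cell line, was grown in serum-containing medium without added oxidative stress, and Cy3-labelled cRNA was hybridized to single-color Agilent arrays. Each genotype is 1 line and 1 array. In Arp5 KO cells *ACTR5*, the gene for Arp5, was disrupted by homologous recombination, and in Arp8 KO cells *ACTR8*, the gene for Arp8, was disrupted in the same way. The other arrays hold unmodified wild-type cells and cells whose label is Arp8 overexpression (overexpression-labelled cells), which were Arp8 KO cells given Arp8 under Tet-Off control. All 4 arrays lay on 1 slide and came from 1 scan. Because no genotype was repeated, a difference has no replicate check, no p-value is given, and effects of genotype, clone and culture cannot be told apart.

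INO80 is a chromatin remodeling complex that slides nucleosomes and acts in transcription, DNA replication and DNA repair. Its core ATPase carries modules of actin-related proteins. Arp8 sits with actin and Arp4 on a DNA-binding module, and Arp5 sits with its partner subunit on a module that couples ATP hydrolysis to nucleosome sliding.

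Signals are given in processed units of the scanner software, a linear brightness after background subtraction. Differences are log2 Arp5 KO minus Arp8 KO, after scaling each array to the 75th percentile of its spots other than controls, so a positive value means higher in Arp5 KO cells. A probe was measured if it was well above background on the brighter of the KO arrays. Where the dimmer array was not well above background, its level was raised to the lowest level of any probe well above background on that array, and the fold is then a minimum, written as at least. These lowest signals were 6.90 units for Arp5 KO and 9.44 units for Arp8 KO cells. Of 41000 probes, 29506 were well above background for Arp5 KO, 28581 for Arp8 KO, 29287 for wild-type and 28926 for overexpression-labelled cells. Repeated spots of one probe give the technical error of a difference, with a median SD of 0.40 where the dimmer signal was under 50 units, 0.05 from 50 to 500 units and 0.03 above 500 units. This error covers the array only, not the cells.

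The targeted genes were examined first. *ACTR5* had 1909 units on the wild-type array, 65.3 on the Arp5 KO array, 1849 on the Arp8 KO array and 2088 on the overexpression-labelled array (probe A_23_P165952). Its signal was thus low on the Arp5 KO array alone, with a difference of -4.78. *ACTR8* had 2149, 2233, 1654 and 1857 units in the same order by probe A_24_P131697, and 1092, 993, 785 and 679 units by probe A_23_P80694. The differences of these probes were 0.47 and 0.38. *ACTR8* signal remained on the Arp8 KO array at somewhat under the wild-type level, and it was not raised on the overexpression-labelled array. The position of these probes relative to the disruption is not given in the sources used here, so *ACTR8* does not check the Arp8 label. The names Arp8 KO and overexpression-labelled are those of the labels.

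Markers of pre-B cells were present on every array. All 10 of them, among them *EBF1*, *PAX5*, *VPREB1*, *IGLL1*, *RAG1* and *DNTT*, were well above background on the 4 arrays. None of the 10 differed beyond 2-fold between the KO arrays, against 1.57% of all genes higher and 1.67% lower. Their differences lay between -0.43 and 0.48. The largest positive difference among them was that of *VPREB1*, a surrogate light chain component, with 37374 units on the wild-type array, 33610 on the Arp5 KO array, 24832 on the Arp8 KO array and 42063 on the overexpression-labelled array.

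Most transcripts differed little between the KO lines. Of 29688 probes measured, 532 (1.79%) were more than 2-fold higher in Arp5 KO cells and 397 (1.34%) more than 2-fold lower. Of these, 106 of the higher and 101 of the lower probes rest on a minimum. The median difference over the measured probes was 0.03, the central 90% lay between -0.51 and 0.68, and 85.6% were within 0.5 of 0. Counted as genes, by the probe with the highest mean log2 signal of the KO arrays, 214 of 13625 (1.57%) were higher and 227 (1.67%) lower, with a median of 0.00. The direction of the imbalance between higher and lower probes depended on the scaling. Higher probes made up 57.3% of those beyond 2-fold, but 46.7% after quantile normalization, with 428 higher and 488 lower, and 71.8% when spike-in control spots were used for scaling, with 802 higher and 315 lower. Spike-in scaling moved every difference by 0.12.

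**Figure D1:**
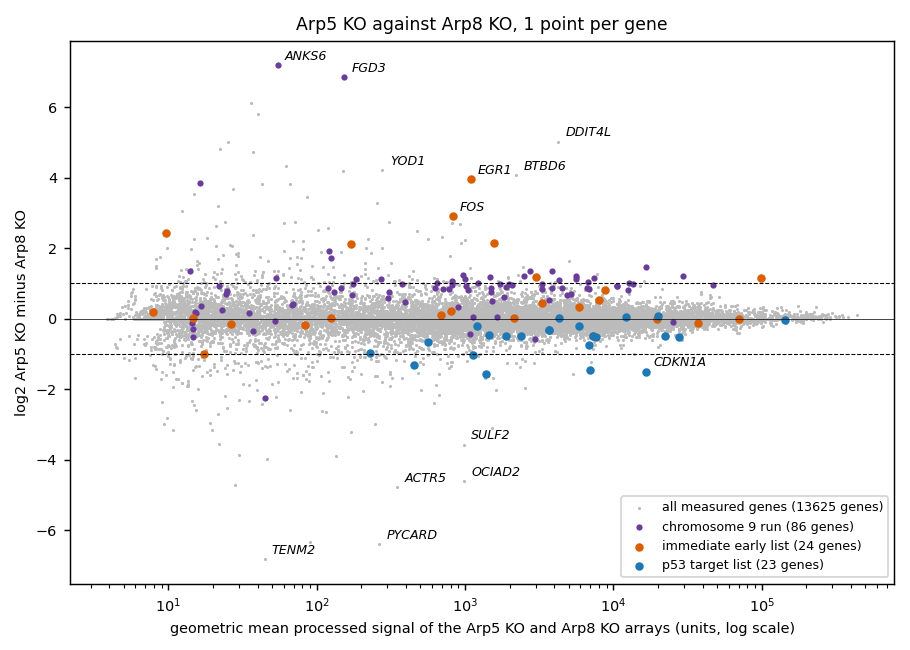
Log2 Arp5 KO minus Arp8 KO (vertical axis) against the geometric mean processed signal of both KO arrays (horizontal log axis), 1 point for each of 13625 genes; purple, orange and blue points are the chromosome 9 run, the immediate early list and the p53 target list, and dashed lines mark 2-fold. Most genes lie near 0, *ACTR5* is at -4.78, the purple points form a band near 0.90, and the blue points lie at or below 0 apart from 3 slightly above it.

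Probes that match no RefSeq gene were more often higher than lower. Among 20143 probes that name a gene, 294 were higher and 293 lower, with a median of 0.00. Among 9545 probes that name none, 238 were higher and 104 lower, with a median of 0.08. For unnamed probes whose brighter array lay between 50 and 500 units the median was 0.12, against 0.01 for named probes of the same brightness. The gap was smaller in the other ranges, with 0.14 against 0.06 under 50 units and 0.03 against -0.01 above 500 units.

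The genes with the highest differences, among those at 50 units or more on both KO arrays, fell into separate patterns over the 4 arrays. *DDIT4L*, a regulator that restrains mTOR signaling, had 15209 units on the wild-type array, 23942 on the Arp5 KO array, 760 on the Arp8 KO array and 272 on the overexpression-labelled array. *YOD1*, a deubiquitinase, had 1414, 1176, 65.5 and 88.2 units in that order. *BTBD6*, a BTB-domain protein, had 8796, 8954, 551 and 1868 units. For these genes the Arp5 KO array was near or above wild-type, and both arrays of Arp8-targeted cells were low. Their differences were 5.02, 4.21 and 4.06, and those of the zinc-finger genes *ZNF512B* and *ZSCAN9*, with the same split of arrays, were 3.27 and 2.27. The same held for *STMN3*, a stathmin-family regulator of microtubules (1586, 2061, 325 and 449 units, difference 2.70), and *ESAM*, an adhesion molecule (597, 1101, 202 and 104.8 units, difference 2.49). *SMCO4* and *GZMA*, which encodes granzyme A, were highest in wild-type cells. *SMCO4* had 4474 units on the wild-type array, 2324 on the Arp5 KO array, 369 on the Arp8 KO array and 350 on the overexpression-labelled array, with a difference of 2.69, and *GZMA* had 4230, 1535, 317 and 519 units, with a difference of 2.31. *EGR1*, *FOS* and the forkhead factor gene *FOXD1* showed another pattern, in which the Arp5 KO array was more than 2-fold above each of the other arrays. *FOXD1* had 121 units on the wild-type array, 782 on the Arp5 KO array, 119 on the Arp8 KO array and 116 on the overexpression-labelled array, a difference of 2.75.

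At 50 units or more on both KO arrays, the genes with the lowest differences after *ACTR5* were split in a like manner. *OCIAD2*, which encodes a mitochondrial protein, had 4164 units on the wild-type array, 197 on the Arp5 KO array, 4934 on the Arp8 KO array and 4683 on the overexpression-labelled array. *CCDC3* had 384, 54.9, 527 and 592 units, and *TMEM44* had 367, 100.3, 424 and 805 units. These genes were lower in Arp5 KO cells than on the other arrays, with differences of -4.61, -3.22 and -2.04. *SULF2*, an extracellular sulfatase that edits heparan sulfate, had 326 units on the wild-type array, 281 on the Arp5 KO array, 3443 on the Arp8 KO array and 1428 on the overexpression-labelled array. *BACE2*, an aspartyl protease, had 144, 86.4, 698 and 509 units, and *BATF*, an AP-1 family factor of lymphocytes, had 392.4, 267, 1432 and 1001 units. Here both arrays of Arp8-targeted cells were high, and the differences were -3.58, -2.97 and -2.38. *PHLDA3*, a p53 target that restrains AKT, had 918, 784, 3302 and 1576 units and was highest in Arp8 KO cells, with a difference of -2.04. In *ZNF518B*, *CTSZ* (cathepsin Z), *ITGB2* (the beta-2 integrin subunit) and *SPINT1* (a serine protease inhibitor) the wild-type signal lay between the Arp5 KO signal and both signals of Arp8-targeted cells, with differences of -3.10, -2.21, -2.17 and -2.12.

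**Figure D2:**
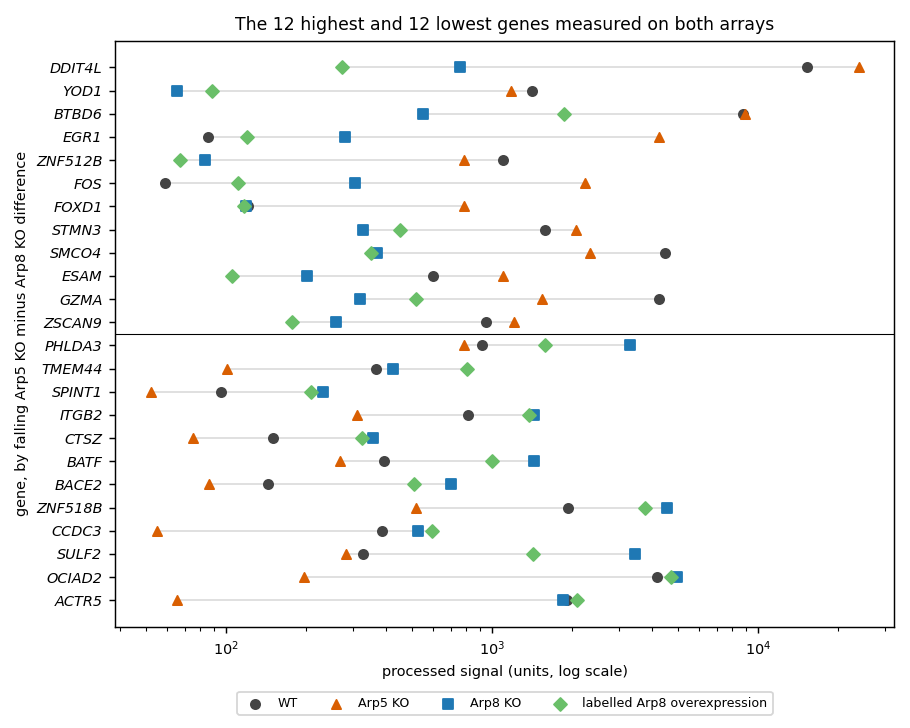
Processed signal (log axis, units) of the 12 genes with the highest and the 12 with the lowest Arp5 KO minus Arp8 KO difference among genes at 50 units or more on both KO arrays, 1 symbol per array, with 1 array per genotype. The blue squares and green diamonds of the arrays of Arp8-targeted cells lie close together in most genes, *EGR1*, *FOS* and *FOXD1* have the Arp5 KO triangle far to the right of the other arrays, and *ACTR5* and *OCIAD2* have it far to the left.

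Several genes were well above background on one KO array only. *ANKS6*, a protein of the primary cilium, had 1849 units in wild-type and 1334 in Arp5 KO cells, and was not well above background in Arp8 KO cells (2.25 units) or on the overexpression-labelled array (1.98 units). It was at least 145-fold higher in Arp5 KO than in Arp8 KO cells. By the same rule *ZNF256*, *MBNL2*, *CASP1*, *GNG11* and *PRKACB* were at least 68.7-, 56.4-, 32.5-, 27.9- and 26.3-fold higher in Arp5 KO cells, and none of these was well above background in Arp8 KO cells. In the other direction *TENM2*, a teneurin adhesion receptor, had 796 units in Arp8 KO cells and 497 on the overexpression-labelled array, and was not well above background in wild-type (3.23 units) or Arp5 KO cells (2.49 units). The Arp5 KO level was lower by at least 112-fold. *CYP2F1*, *TNFRSF10A*, *CD300LF*, *WNT3* and *ADRA2B* were at least 26.2-, 14.5-, 11.7-, 8.97- and 8.97-fold lower. *CYP2F1* and *ADRA2B* were well above background in Arp8 KO cells (186 and 63.6 units) but not on the overexpression-labelled array. A further probe of *CYP2F1* did not share the difference and gave 0.36. A further, dim probe of *MBNL2* gave a minimum of 0.71 in the same direction. The calls of *WNT3* and *ADRA2B* beyond 2-fold were lost with normexp background correction. That correction adds an offset of 50 units, which by itself shrinks the folds of dim probes. Losses of dim calls with normexp, here and below, are therefore largely built in.

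The pattern over the 4 arrays was then counted for all genes beyond 2-fold. Each gene was counted once, under the first pattern it met in the order given. Later counts therefore leave out genes that also met an earlier pattern. Of the 214 genes higher in Arp5 KO cells, 63 (29.4%) had wild-type and Arp5 KO cells both more than 2-fold above both arrays of Arp8-targeted cells. In a further 37 (17.3%) Arp5 KO cells stood more than 2-fold above the other 3 arrays. In another 8 (3.74%) Arp8 KO cells stood more than 2-fold below the other 3, and 106 (49.5%) were intermediate. Of the 227 lower genes, 56 (24.7%) had wild-type and Arp5 KO cells both more than 2-fold below both arrays of Arp8-targeted cells. A further 40 (17.6%) had Arp5 KO cells more than 2-fold below the other 3 arrays. Another 19 (8.37%) had Arp8 KO cells more than 2-fold above the other 3, and 109 (48.0%) were intermediate. The remaining 3 lacked a value on 1 array. The genes were chosen by their difference between the KO arrays, so these counts describe where the other arrays fall and are not a test.

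The lists of genes differed little as a whole, with some exceptions. Of 29 lists, 26 had a median within 0.25 of 0, against a median of 0.00 over all genes, and 16 had no member beyond 2-fold. For 14 of them, all with medians within 0.11 of 0, the sign of the median changed under at least 1 of 8 alternatives of scaling, background, value table and outlier spots. Scaling to the array median moved every difference by -0.08, so that small medians of either sign depend on the scaling. The lists with a median beyond 0.3 were clustered histone genes, p53 target genes and myeloid markers.

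**Figure D3:**
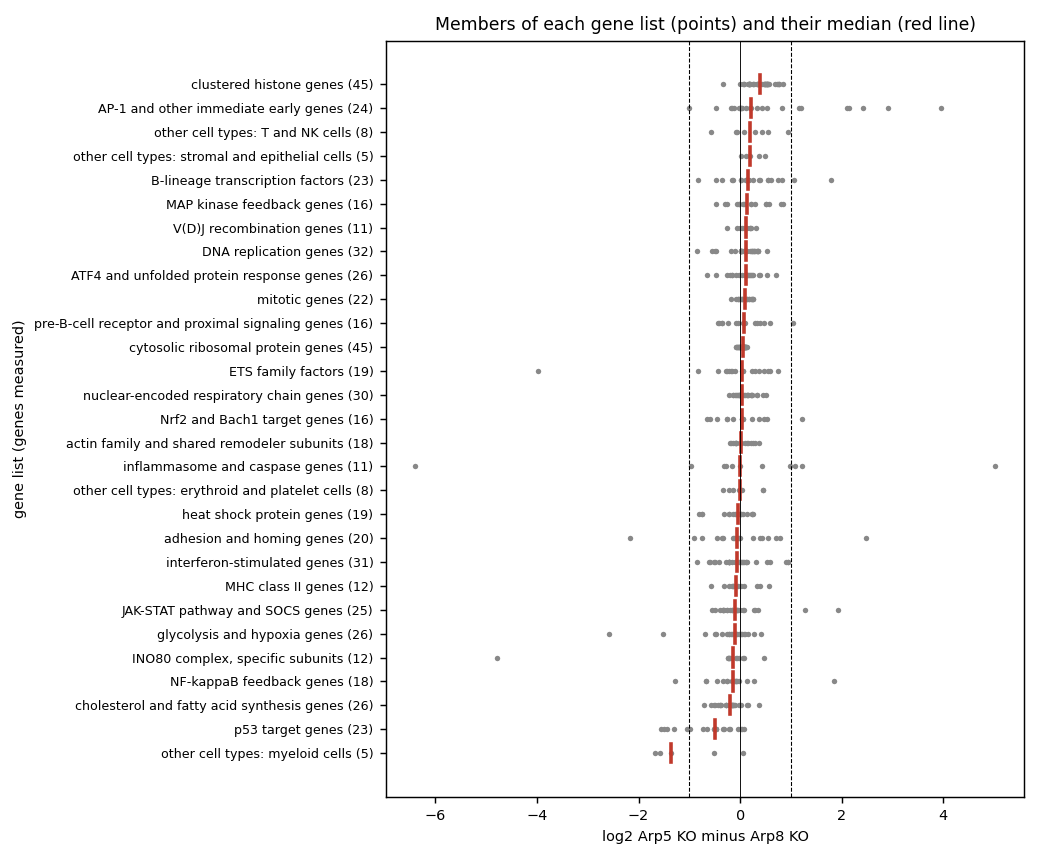
Log2 Arp5 KO minus Arp8 KO (horizontal axis) of the measured members (grey points) of 29 gene lists, with each list's median as a red line, the number of genes measured in brackets and dashed lines at 2-fold. The p53 target and myeloid lists have medians of -0.49 and -1.36 and the histone list 0.38, while the immediate early list has a median of 0.21 and the most members to the right of the upper 2-fold line.

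Immediate early genes encode factors such as AP-1 subunits and EGR proteins that cells induce within minutes of a stimulus, without new protein synthesis. Of 24 measured members 7 were more than 2-fold higher in Arp5 KO cells and 1 lower, against 1.57% and 1.67% of all genes, and the median was 0.21. It was 0.13 when arrays were scaled to their median. *EGR1* had 85.2 units on the wild-type array, 4249 on the Arp5 KO array, 280.2 on the Arp8 KO array and 119 on the overexpression-labelled array. *FOS* had 58.7, 2237, 306 and 111 units, and *FOSB* had 36.2, 347, 82.8 and 54.5 units. All of these were above wild-type on both KO arrays and far higher in Arp5 KO cells, with differences of 3.96, 2.91 and 2.10. *KLF2*, a factor of lymphocyte quiescence, had 643, 3226, 750.1 and 529.5 units, *IER3* had 1998, 4469, 2013 and 1408 units, and *IER2* had 55197, 146116, 67527 and 48923 units. These genes were close to wild-type in Arp8 KO cells and raised in Arp5 KO cells, with differences of 2.14, 1.19 and 1.15. A dimmer *KLF2* probe gave -0.58, so the probes of this gene disagree in direction. *JUN*, picked out with its values in view, showed 885, 11459.9, 6680.0 and 1533 units, a difference of 0.82 that is short of 2-fold. *EGR4* was at least 5.36-fold higher in Arp5 KO cells because both arrays of Arp8-targeted cells lacked a signal well above background (1.90 and 1.77 units, against 67.7 in wild-type and 49.2 in Arp5 KO cells). *NR4A2* was the lower member, with 24.8 units in Arp8 KO cells and a difference of -1.01, within the technical SD of 0.40 of the 2-fold line. With normexp *EGR4* and *NR4A2* were short of 2-fold, and with spike-in scaling *NR4A2* was. *TNF*, a cytokine gene counted in the list of NF-kappaB feedback genes, had the same order of arrays as *FOS*, with 57.2, 436, 124 and 87.1 units and a difference of 1.86. In the list of MAP kinase feedback genes, which holds the DUSP and Sprouty inhibitors, 0 of 16 members differed beyond 2-fold, and the median was 0.14, or 0.06 with the array median, 0.01 with normexp and 0.27 with spike-in scaling.

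Promoters of the immediate early genes were read because serum response elements (SRE), cyclic AMP response elements (CRE, TGACGTCA) and AP-1 sites (TGAGTCA or TGACTCA) are known in this class. Windows of 250 bases before to 50 bases after the annotated start, from RefSeq on GRCh38.p14, were searched on both strands. The SRE consensus occurs in 1.29% of 35116 windows. Of the higher genes with a window 3 of 168 held it, of the lower genes 5 of 161, and of all measured genes 1.62%. A gene was counted if any of its windows held a match. Within the list the single window of *EGR1* held 2 matches, 1 of 2 windows of *SRF* (difference -0.01) held 2, and 1 of 3 windows of *EGR2* (-0.19) held 1. A CRE was found for *JUND*, which was not measured, and an AP-1 site for *FOSL2* (0.03). An interferon-stimulated response element was found for *EGR4* (a minimum of 2.42) and in a window of *ATF3* (0.01). No window was read for the measured members *IER3*, *NR4A2*, *FOSL1*, *EGR3*, *KLF10* and *MYC*. The 250 bases before the start site of *EGR1* (GRCh38.p14, chr5:138465229-138465478, + strand) and of *FOS* (chr14:75278578-75278827, + strand) are shown 5′ to 3′, with SRE matches in capitals, because these genes had the highest differences of the list.
EGR1: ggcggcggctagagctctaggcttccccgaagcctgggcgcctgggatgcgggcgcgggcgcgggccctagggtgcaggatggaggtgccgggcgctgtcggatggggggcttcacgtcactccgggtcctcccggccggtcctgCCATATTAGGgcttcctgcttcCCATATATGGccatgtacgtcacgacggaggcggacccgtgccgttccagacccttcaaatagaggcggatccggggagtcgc
FOS: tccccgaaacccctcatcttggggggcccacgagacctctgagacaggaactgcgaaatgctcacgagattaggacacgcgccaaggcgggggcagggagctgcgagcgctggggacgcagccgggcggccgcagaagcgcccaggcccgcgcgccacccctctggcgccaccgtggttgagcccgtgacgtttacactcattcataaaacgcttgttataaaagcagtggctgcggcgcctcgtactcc
The *EGR1* matches end 96 and 74 bases before the start site. The *FOS* window held no match to the motifs searched, which says only that these letters are not in this window. CRE occurs in 1.85% of windows and in 5 of 168 higher and 0 of 161 lower genes, against 3.58% of measured genes. AP-1 sites occur in 4.95% of windows, in 16 higher, 12 lower and 4.89% of measured genes. The ETS motif (CCGGAAGT) occurs in 4.14% of windows, in 8 higher, 4 lower and 9.20% of measured genes, and the interferon-stimulated response element in 6.40% of windows, in 17 higher, 10 lower and 7.11% of measured genes.

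The p53 target genes ran the other way. p53 is the transcription factor that answers DNA damage, and its targets halt the cell cycle, repair DNA or promote cell death. Of 23 measured members 0 were higher and 5 lower beyond 2-fold in Arp5 KO cells, against 1.57% and 1.67% of all genes, 20 had a negative difference, and the median was -0.49. *CDKN1A*, which encodes the cell cycle inhibitor p21, had 12254 units on the wild-type array, 9788 on the Arp5 KO array, 28545 on the Arp8 KO array and 14443 on the overexpression-labelled array. *TNFRSF10B*, a death receptor gene, had 4537, 4149.8, 11582 and 5958 units, and *SESN1*, a sestrin of the stress response, had 893, 793, 2394 and 1094 units. The Arp8 KO array was high and the other arrays lay near each other. The differences were -1.50, -1.44 and -1.55. *FAS*, another death receptor gene, had 435, 285, 720.3 and 407 units, with a difference of -1.30. *TP53INP1* had 660.5, 781, 1651 and 1440.1 units, so that both arrays of Arp8-targeted cells were high, with a difference of -1.04 that fell short of 2-fold with normexp and with spike-in scaling. The Arp8 KO array was the highest of the 4 for 19 of the 23 members. Relative to wild-type cells the list's median was 0.65 in Arp8 KO cells, 0.11 in Arp5 KO cells and 0.26 on the overexpression-labelled array. The Arp5 KO minus Arp8 KO median stayed between -0.57 and -0.37 under 8 alternatives of scaling, background, value table and outlier spots. The apoptosis genes *BBC3*, *PMAIP1* and *BAX*, chosen after their values were seen, had differences of -0.05, 0.01 and 0.07.

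**Figure D4:**
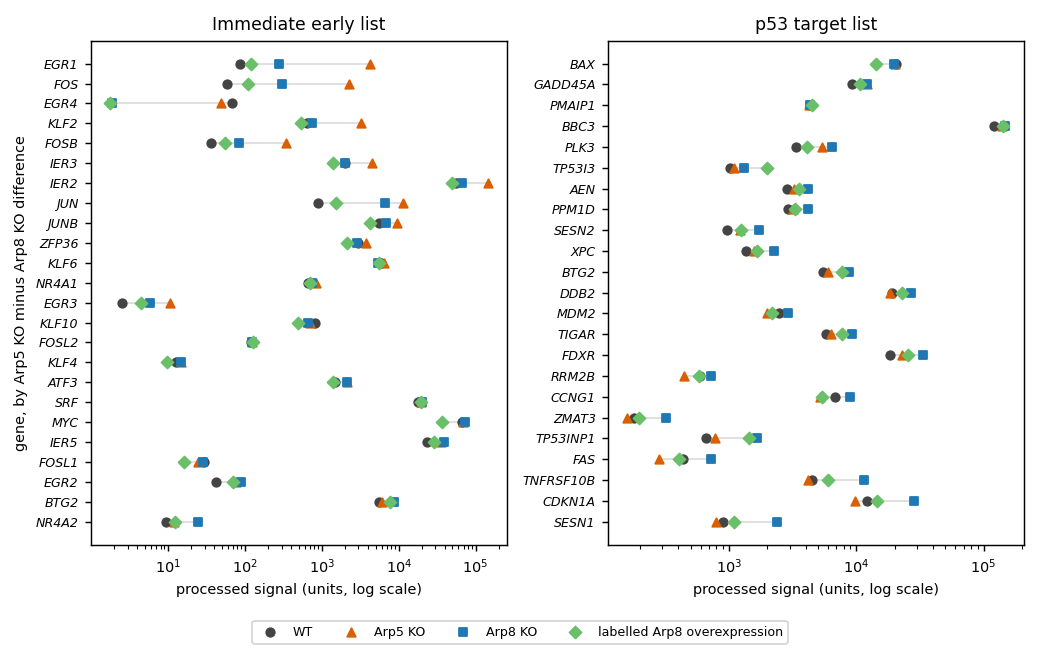
Processed signal (log axis, units) of the measured immediate early genes (left, 24) and p53 target genes (right, 23), 1 symbol per array, with 1 array per genotype and genes ordered by the Arp5 KO minus Arp8 KO difference. At the top left the Arp5 KO triangle lies to the right of the other arrays, except for *EGR4*, and in most genes on the right the Arp8 KO square is the rightmost symbol.

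Clustered histone genes, whose mRNAs are made in S phase and mostly lack poly(A) tails, were slightly higher in Arp5 KO cells. Of 45 measured members 44 had a positive difference, and the median was 0.38. Beyond 2-fold were 0, against 1.57% of all genes higher and 1.67% lower. The Arp5 KO array was the highest of the 4 for 40 members. *H2BC5*, with the largest difference of the list and named after its values were seen, had 3179 units on the wild-type array, 4202 on the Arp5 KO array, 2412 on the Arp8 KO array and 1078 on the overexpression-labelled array, a difference of 0.84. Relative to wild-type cells the median was 0.26 on the Arp5 KO array, -0.10 on the Arp8 KO array and -0.63 on the overexpression-labelled array, so the arrays of Arp8-targeted cells differed from each other here. Near-identical histone genes can share probes, and single members are uncertain. Genes of DNA replication, with 0 of 32 beyond 2-fold and a median of 0.11, and mitotic genes, with 0 of 22 and 0.10, did not differ by as much.

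Inflammasome and caspase genes differed in both directions. *PYCARD*, the adaptor ASC that links sensors to caspase-1, had 1348 units on the wild-type array, 28.4 on the Arp5 KO array, 2459 on the Arp8 KO array and 3117 on the overexpression-labelled array. *CASP1*, which encodes caspase-1, had 124 and 299 units in wild-type and Arp5 KO cells and was not well above background on either array of Arp8-targeted cells (2.12 and 7.23 units). *CASP4* had 16419.6, 23147, 11299.8 and 11141 units, and *IL1B*, a cytokine gene whose product caspase-1 matures, had 275, 298, 131 and 184 units. The adaptor was thus low in Arp5 KO cells and the caspase in Arp8-targeted cells, with differences of -6.40 for *PYCARD*, 1.07 for *CASP4* and 1.22 for *IL1B*. Of 11 measured members 3 were higher and 1 lower, against 1.57% and 1.67% of all genes, and the median was 0.01. The counts were 2 and 2 with the array median, where *CASP4* was short of 2-fold, 3 and 2 with quantile normalization or no scaling, 2 and 1 with normexp, where *IL1B* was short of it, and 4 and 1 with spike-in scaling.

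Lymphoid signaling genes showed single differences. In the JAK-STAT list 2 of 25 members were higher and 0 lower, against 1.57% and 1.67% of all genes, with a median of -0.09. These were *IL7R*, the interleukin-7 receptor chain on which B-cell precursors depend, with 10613 units on the wild-type array, 11842 on the Arp5 KO array, 5013 on the Arp8 KO array and 5832 on the overexpression-labelled array, and *IL2RG*, the common gamma chain with which it pairs, with 247, 116, 31.2 and 37.3 units. Both receptor chains were lower on the arrays of Arp8-targeted cells, with differences of 1.28 and 1.93, and with normexp *IL2RG* was short of 2-fold. Among B-lineage transcription factors 2 of 23 were higher, *ID2* (difference 1.05) and the Ikaros-family gene *IKZF3* (1.78), and the list's median was 0.15. A further *ID2* probe gave 0.90, short of 2-fold, as was *ID2* with the array median and *IKZF3* with normexp. In the pre-B-cell receptor list 1 of 16 was higher, the inhibitory receptor gene *CD22*, with 1821, 1074, 537 and 1173 units and a difference of 1.04. This call was lost with no scaling and with the array median. The list's median was 0.07, or -0.01 with the array median, and V(D)J recombination genes had 0 of 11 beyond 2-fold with a median of 0.12.

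Subunits of the complex itself were at like levels in both KO lines. Apart from *ACTR5*, none of the 12 INO80-specific subunit genes differed beyond 2-fold, against 1.57% of all genes higher and 1.67% lower. The list's median was -0.13. *INO80*, the ATPase gene, named after its values were seen, had 6899.8 units on the wild-type array, 12004 on the Arp5 KO array, 14102 on the Arp8 KO array and 8070.0 on the overexpression-labelled array. It was above wild-type in both KO lines, and its difference was -0.19. Actin-family and shared remodeler subunits had 0 of 18 beyond 2-fold and a median of 0.01. At the shares over all genes, lists of this size would hold few genes beyond 2-fold.

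In other lists few members differed, beside 1.57% of all genes higher and 1.67% lower. The Nrf2 and Bach1 list, which holds genes of the response to heme and oxidative stress, had 1 of 16 higher, *TXN* (thioredoxin), and a median of 0.04. *TXN* lies in the run of neighbouring genes on chromosome 9 described below, most of which differed in the same direction. In the NF-kappaB feedback list, beside *TNF*, *BIRC3* was at least 2.44-fold lower, short of 2-fold with normexp, and the median was -0.14. In the adhesion list *ESAM* was higher and *ITGB2* lower, with a median of -0.06 over 20 genes. Among ETS factors 1 of 19 was lower, *ETV7*, with 48.3, 11.4, 185 and 117 units, a difference of -3.98, and the median was 0.04. In the glycolysis and hypoxia list 2 of 26 were lower, *EGLN3* at least 5.99-fold and *ADM* with -1.53, and the median was -0.11. Both calls were lost with normexp. No member was beyond 2-fold among 31 interferon-stimulated genes (median -0.06, but 3 higher and a median of 0.06 with spike-in scaling), 26 cholesterol and fatty acid synthesis genes (-0.20), 26 ATF4 and unfolded protein response genes (0.11), 30 respiratory chain genes (0.04), 12 MHC class II genes (-0.09), 45 ribosomal protein genes (0.05) and 19 heat shock protein genes (-0.05).

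Of the lists of markers of other cell types, the myeloid list alone had members beyond 2-fold. Of its 11 genes 5 were measured, of which 3 were lower in Arp5 KO cells, against 1.67% of all genes, and the median was -1.36. With normexp background correction the median was -0.56 and 1 gene was lower, as *LYZ* and *ITGAM* were then short of 2-fold. *CD33* had 587 units on the wild-type array, 854 on the Arp5 KO array, 2792 on the Arp8 KO array and 1703 on the overexpression-labelled array, and was the brightest of the list on each array. *LYZ* had 55.4, 46.3, 143 and 139.7 units, and *ITGAM*, whose product pairs with that of *ITGB2*, had 38.4, 28.4, 74.8 and 55.2 units. These genes were higher on both arrays of Arp8-targeted cells, with differences of -1.67, -1.58 and -1.36. The summed signal of the 5 genes was 811, 1064, 3148 and 2033 units in the same order of arrays. The other 6 genes of the list were not well above background on the brighter KO array. The part of other cells in this was not tested. The T and NK list had 0 of 8 measured genes beyond 2-fold, or 1 higher with spike-in scaling, and a median of 0.19. It leaves out other T and NK genes beyond 2-fold, which went in both directions. Among the higher were *GZMA* (2.31), *KLRK1* (2.02), *KLRC1* (1.74), *KIR3DL3* (1.64), *KLRC2* (1.32), *GZMK* (1.14) and *LCK* (1.03). Among the lower were *TXK* (-1.50) and *LAG3* (-1.12). Apart from *GZMA*, these genes were named after their values were seen. They are examples and not a full set, so their numbers in each direction carry no weight. The remaining lists had 0 of 8 beyond 2-fold and a median of -0.01 for the erythroid and platelet list, and 0 of 5 and 0.19 for the stromal and epithelial list.

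Position on the chromosomes was not used to choose the genes, and 1 region stood out. Medians of whole chromosomes, over genes at 50 units or more on both KO arrays, lay between -0.06 on chromosome 21 and 0.03 on chromosome 22. On chromosome 9, however, 22 of 434 such genes were more than 2-fold higher in Arp5 KO cells and 2 lower, although the median of the chromosome was 0.01. On the other chromosomes 86 of 10914 such genes were higher. The higher genes lay next to each other. From *IPPK* to *INIP*, in the RefSeq gene order of GRCh38.p14, 67 neighbouring genes at this signal had a median difference of 0.90, with quartiles of 0.72 and 1.05. Of these, 63 were positive, 56 were above 0.5 and 21 were beyond 2-fold. The signal in Arp8 KO cells was 0.537 times that in Arp5 KO cells at this median. The 20 genes before the run had a median of -0.12, the 20 after it -0.04, and the other 367 genes of the chromosome -0.03.

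Within the run Arp5 KO cells were like wild-type and both arrays of Arp8-targeted cells were lower. Relative to wild-type cells the median over the 67 genes was -0.04 on the Arp5 KO array, -0.93 on the Arp8 KO array and -0.96 on the overexpression-labelled array, against 0.03, 0.07 and 0.08 over the rest of the chromosome. Between the arrays of Arp8-targeted cells the median was -0.02. *TXN* had 40465 units on the wild-type array, 44747 on the Arp5 KO array, 19691 on the Arp8 KO array and 20208 on the overexpression-labelled array, a difference of 1.22. Other genes named from the run were chosen after their values were seen. *SEC61B*, a subunit of the endoplasmic reticulum translocon, had 60484, 64681, 34601 and 38206 units, and *RAD23B*, a nucleotide excision repair factor, had 18993, 17763, 9111 and 9413 units. For these genes both arrays of Arp8-targeted cells were close to each other and lower than the other arrays, with a difference of 0.94 for *SEC61B*. DNA repair genes *XPA* and *FANCC* were in the run too, with differences of 0.95 and 1.34.

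**Figure D5:**
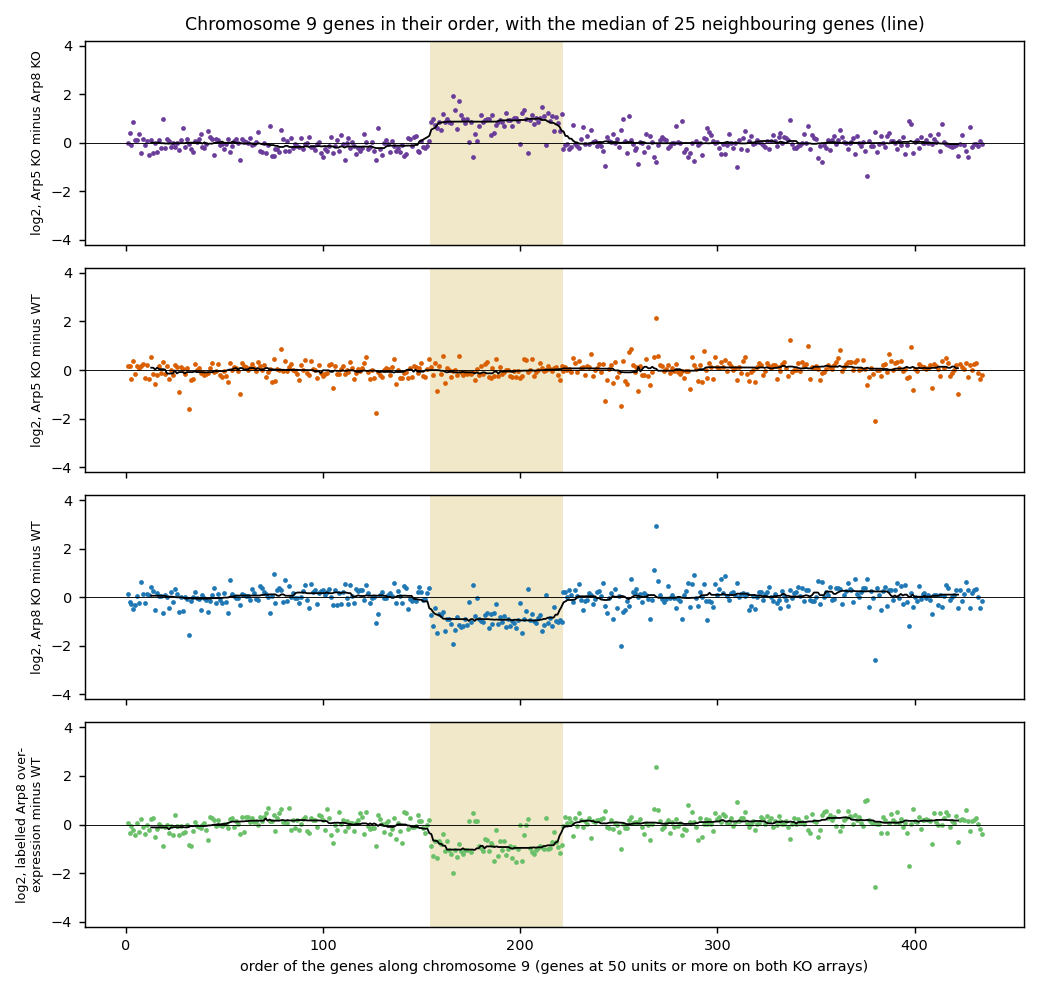
Log2 differences of the genes of chromosome 9 in their order along the chromosome (horizontal axis, 434 genes at 50 units or more on both KO arrays), for Arp5 KO minus Arp8 KO and for each array minus wild-type; points are genes, lines are medians of 25 neighbouring genes and the shaded band is the run from *IPPK* to *INIP*. The line rises to near 0.90 in the band in the top panel, stays near 0 for Arp5 KO cells and falls to near -0.93 and -0.96 on the arrays of Arp8-targeted cells.

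Some genes in the run did not share its level. *ABCA1*, *CTSV*, *PALM2AKAP2* and *PPP3R2* had negative differences, between -0.59 and -0.07. *FGD3*, a guanine nucleotide exchange factor, had 1887 units on the wild-type array, 1621 on the Arp5 KO array, 14.5 on the Arp8 KO array and 37.2 on the overexpression-labelled array, a difference of 6.84. The neighbours *ANKS6* and *GALNT12* were not well above background on either array of Arp8-targeted cells, so that transcripts of both were at least 145- and 14.5-fold higher in Arp5 KO cells. *BARX1*, a homeobox gene, went the other way, with 6.25, 20.3, 100.03 and 67.6 units and a difference of -2.26. With dimmer genes included the run held 86 genes, with a median of 0.87, and 26 of them were more than 2-fold higher, which is 12.1% of the 214 higher genes. Without the run 188 of 13539 genes (1.39%) were higher and 226 lower. Medians of 25 neighbouring genes, taken over 10796 windows, were beyond 0.25 in this region and in the histone gene region of chromosome 6 only, where the highest was 0.48. The next run by the same search, on chromosome 22, held 3 genes. The difference was seen in RNA on 1 array each, and its cause was not tested.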

How the data were processed

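The authors deposited, for each array, the spot intensity from Agilent Feature Extraction 10.5.1.1: a processed signal after background subtraction and detrending, and median signals of spot and background. A second deposited file holds intensity values that equal the processed signal times 1 factor per array (0.847 on the wild-type array, 0.838 on the Arp5 KO array, 0.825 on the Arp8 KO array and 0.807 on the overexpression-labelled array). How that factor was set is not given in the sources used here. No spot was saturated.

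Control and outlier spots were left out, log2 signals were set against the array's 75th percentile, and spots of a probe were averaged. RefSeq accessions named 26217 of 41000 probes (17718 genes). Named genes are *ACTR5* and *ACTR8*, the 12 highest and 12 lowest at 50 units or more on both KO arrays, the 6 highest and 6 lowest resting on a minimum, and list members beyond 2-fold. Members and lists were chosen with earlier results of these data known. The search for runs of neighbouring genes, the patterns over 4 arrays and the split by gene name were added after seeing the data. The run maximised the sum of differences, limited to 1 either way, less 0.45. A listed marker gene is not reported here. Alternatives were other scalings, quantile normalization, normexp background correction of the median signals (offset 50), then quantile normalization (the files used hold no mean signal), the authors' table, other dim-probe filters and other thresholds. The tools were limma 3.58.1 in R 4.3.3, and matplotlib 3.10.9, scipy 1.17.1, pandas 2.3.3 and numpy 2.4.6 in Python 3.11.15. The number of arrays limits the precision.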

Additional observations from a re-analysis of the deposited data

Results flagged for a closer look

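The array labelled Arp8 overexpression is outside the comparison of the KO lines, and on it 2 gene lists had medians more than 0.3 above the wild-type array. The genes of the pre-B-cell receptor and its proximal signaling had a median log2 difference of 0.42 from wild-type cells over 16 genes, and the array was the highest of the 4 for 12 of them. The myeloid markers had a median of 1.17 over 5 genes, and they were also above wild-type on the Arp8 KO array (0.94). Other lists lay as far below wild-type on the overexpression-labelled array. They were clustered histone genes (-0.63), cholesterol and fatty acid synthesis genes (-0.37) and stromal and epithelial markers (-0.33). The size of 0.3 used to pick the lists was set after seeing the values, and none of these differences was tested.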

How the results depend on the processing

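Each genotype has 1 array, so no paired analysis was possible. Counts of probes beyond 2-fold (532 higher, 397 lower) depended most on the treatment of dim probes and the threshold. They were 146 and 123 with normexp, which here also took the median signal and quantile normalization, 1559 and 968 with no filter on dim probes, 274 and 188 with the brighter array at 100 units or more, 2064 and 1177 at 1.5-fold, and 141 and 139 at 3-fold. Without raising the dimmer array they were 808 and 447. Counted as genes they were 214 and 227, without the chromosome 9 run 188 and 226, and over probes with a gene name 294 and 293, and with spike-in scaling 802 and 315. The spike-in, gene-name and run settings were chosen after seeing the data, as were all settings for the lists except quantile normalization and the median over a gene's probes. The 3 lists given here were also picked after their values were seen.

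The median of the immediate early list (0.21) was 0.16 after quantile normalization, 0.17 with no scaling, 0.13 with the array median, 0.17 with normexp and 0.33 with spike-in scaling. That of the histone list (0.38) was 0.34, 0.30 and 0.50 with no scaling, the array median and spike-in scaling, and that of the p53 list (-0.49) was -0.53, -0.57 and -0.37. The median of the chromosome 9 run (0.90) was 0.86 with no scaling, 0.82 with the array median, 0.83 with normexp and 1.02 with spike-in scaling. The cause of these shifts, beyond the scaling itself, was not tested. None of these medians changed sign, but 14 of 29 lists, all with medians within 0.11 of 0, changed sign under at least 1 of the 8 alternatives of scaling, background, value table and outlier spots. Of 65 named genes, all kept their sign under those alternatives and without raising the dimmer array. Of the 64 beyond 2-fold, 51 remained so with normexp, 61 with the array median and 62 with spike-in scaling. The normexp offset of 50 units shrinks the folds of dim genes by construction, so their loss is not a separate check. Signals under 50 units, with a technical SD of 0.40, limit what can be said of dim genes.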

Other observations

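Short runs of neighbouring genes other than that on chromosome 9 also shared a direction. *GZMK* and *GZMA*, neighbouring granzyme genes on chromosome 5, had a median difference of 1.73, and *CASP4* and *CASP5*, inflammatory caspase genes on chromosome 11, had 1.02. *ACTA2* and *FAS* on chromosome 10 had a median of -1.59, and *TNFSF9* and *CD70*, ligands of the TNF family on chromosome 19, had -1.08. Each of these runs holds 2 genes, and they were found by searching the data.

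Probes that name no gene had their highest level in Arp5 KO cells. For the 8651 such probes with signal well above background everywhere, the median log2 level against the 75th percentile was -3.24 on the wild-type array, -3.17 on the Arp5 KO array, -3.29 on the Arp8 KO array and -3.33 on the overexpression-labelled array. Over 19270 named probes it was -0.68, -0.69, -0.66 and -0.67.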
